A study of Mus musculus with 4 samples.

Results

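Fatty acid, retinol and apolipoprotein carriers were followed in single hormone-producing cells of the mouse small intestine. The carriers were Fabp1, Fabp2, Fabp5, Rbp2, Rbp4, Apoa1 and Apoa4, chosen by name as genes known from lipid and vitamin A handling in enterocytes or blood. They were chosen with earlier results of these data known. Of these 7 genes, 6 had a row among the 29161 genes of the count table, and Fabp1 is not analysed here. The cells came from enteroids, epithelial mini-guts grown in Matrigel, of female CD1 mice that all carried the reporter genotype Neurog3eYFP/+. Living eYFP-positive cells were sorted at 1 cell per well into 4 plates, so that every group holds cells of the Neurog3 lineage and no group lacks the reporter allele. Duodenum plate 1 came from an animal age of 39 weeks, duodenum plates 2 and 3 and jejunum plate 1 from 12 weeks. All were kept in a medium with R-spondin-1, EGF and Noggin, and the labels name no treatment that differs between groups. The labels do not say how many animals each plate holds, so the spread between animals is not known. For classes, the p-values measure how class differences varied between these plates. For tissue and age, the spread comes from the side with more than 1 plate.

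The 290 cells in the table, of 368 sorted, were put into classes by CPM, a gene's counts divided by all counts of the cell and scaled to 1000000. A cell was peptide-high when Cck, Gip, Gcg or Ghrl reached 1000 CPM, Tph1-high when Tph1 reached 200 CPM and Chgb-low when Chgb was under 2000 CPM. Cck, Gip, Gcg and Ghrl encode gut peptide hormones, Tph1 the enzyme that starts serotonin synthesis, and Chgb the hormone granule protein chromogranin B. The rules left 28 cells that were peptide-high alone, 94 that were Tph1-high alone and 120 that were Chgb-low alone. Another 22 cells met more than 1 rule and 26 met none. The 28 peptide-high cells were 13 of duodenum plate 2, 7 of duodenum plate 3 and 8 of jejunum plate 1, and duodenum plate 1 held 0 of them. Tph1-high cells numbered 20, 25 and 19 in duodenum plates 1, 2 and 3 and 30 in the jejunum plate. Chgb-low cells numbered 42, 28, 37 and 13 in the same order. The summed counts of a class in a plate ranged from 3714371 to 24336748.

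Dietary fat and vitamin A enter the body through enterocytes, the absorptive cells of the villus. Inside them, fatty acid-binding proteins and the cellular retinol-binding protein encoded by Rbp2 carry fatty acids and retinol through the cytosol, and apolipoproteins coat the lipoprotein particles that leave the cell. Rbp4 encodes the protein that carries retinol in blood, where it travels bound to transthyretin. Enteroendocrine cells sit among the enterocytes and sense the same nutrients. Gip is made by K cells, Cck by I cells and Gcg by L cells, and Fabp5 has been described in K cells.

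The sequences before the starts of Rbp2 and Rbp4 are shown because these genes, both encoding retinol carriers, were high in the same class. They are the 250 bases before a RefSeq start in build GRCm38.p6, written 5′ to 3′ on the gene's strand. Both strands were searched for 5 motifs, and capitals mark a match. The motifs were the core promoter element TATAAA, the nuclear receptor half-site spelled AGGTCA, the GATA factor motif spelled AGATAA, the homeodomain core spelled TAATTA and the E-box spelled CATCTG. The Rbp2 window is chr9:98490287-98490536 on the plus strand, and lies inside the longer gene that GENCODE M21 places on chromosome 9 from 98486115 to 98509781. The Rbp4 window is chr19:38125322-38125571 on the minus strand, before the gene's outer start.
Rbp2: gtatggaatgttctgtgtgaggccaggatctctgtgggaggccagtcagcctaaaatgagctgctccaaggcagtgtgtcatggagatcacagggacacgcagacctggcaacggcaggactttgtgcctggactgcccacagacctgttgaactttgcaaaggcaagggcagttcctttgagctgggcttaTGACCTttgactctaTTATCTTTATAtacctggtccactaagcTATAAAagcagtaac
Rbp4: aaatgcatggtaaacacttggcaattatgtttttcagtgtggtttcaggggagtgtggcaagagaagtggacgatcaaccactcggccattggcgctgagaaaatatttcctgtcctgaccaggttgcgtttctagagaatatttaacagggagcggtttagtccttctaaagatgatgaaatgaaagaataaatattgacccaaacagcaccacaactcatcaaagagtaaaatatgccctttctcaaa

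The Rbp2 window holds TATAAA at 15 bases before the start and, on the opposite strand, at 38 bases. AGGTCA lies on the opposite strand at 58 bases and AGATAA on the opposite strand at 43 bases, next to the opposite-strand TATAAA with 1 base in common. None of the 5 motifs was found in the Rbp4 window shown, and the window of a second RefSeq start of Rbp4, not shown, holds TATAAA at 28 bases. Of 32851 RefSeq windows of this length, 12.4% hold TATAAA, 14.0% AGGTCA, 9.99% AGATAA, 4.84% TAATTA and 14.4% CATCTG. These matches describe the letters only.

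Fabp5 (ENSMUSG00000027533, chromosome 3, 10012548 to 10016607, plus strand), encoding a cytosolic fatty acid-binding protein, was high in peptide-high cells. In counts summed per plate it stood at 3208, 1133 and 1794 CPM in the peptide-high cells of duodenum plates 2 and 3 and the jejunum plate. Tph1-high cells had 75.4, 104 and 31.9 CPM in duodenum plates 1, 2 and 3 and 38.0 CPM in the jejunum plate. Chgb-low cells had 61.6, 158, 65.2 and 66.7 CPM in the same order. Every peptide-high sum thus lay above every sum of the other 2 classes, whereas Tph1-high and Chgb-low sums overlapped. Among single cells, 23 of the 28 peptide-high cells held at least 100 CPM and 13 at least 1000 CPM. Of the 94 Tph1-high cells, 19 reached 100 CPM and 0 reached 1000 CPM. A count of 0 would allow a share of up to 3.19% if cells were independent, but cells of a plate share their source. Of the 120 Chgb-low cells, 36 reached 100 CPM and 2 reached 1000 CPM. Low to moderate Fabp5 was therefore found in all 3 classes, and levels of 1000 CPM or more nearly all in peptide-high cells.

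Rbp4 (ENSMUSG00000024990, chromosome 19, 38116629 to 38125281, minus strand) was also highest in the peptide-high class, and stood higher in Tph1-high than in Chgb-low sums. The peptide-high sums were 1923, 1751 and 945 CPM in duodenum plates 2 and 3 and the jejunum plate. Tph1-high sums were 40.8, 29.1, 12.4 and 9.04 CPM in duodenum plates 1, 2 and 3 and the jejunum plate. Chgb-low sums were 0.224, 2.79, 2.15 and 3.03 CPM in the same order. The ranges of the 3 classes did not overlap. In single cells, 23 of 28 peptide-high cells, 6 of 94 Tph1-high cells and 0 of 120 Chgb-low cells reached 100 CPM. For the Chgb-low class, 0 cells would allow a share of up to 2.5%, again only if cells were independent. Cells with a few Rbp4 counts were common, since 54 Tph1-high and 57 Chgb-low cells had some Rbp4 at under 20 CPM, so the limit of 100 CPM is used throughout for single cells. Most of the Tph1-high Rbp4 came from few wells. In duodenum plates 1, 2 and 3 and the jejunum plate, 1 cell held 53.8%, 61.9%, 87.2% and 66.8% of the counts.

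Rbp2 (ENSMUSG00000032454, chromosome 9), encoding the cellular retinol-binding protein of the intestine, was high in a subset of peptide-high cells. The peptide-high sums were 386, 263 and 678 CPM in duodenum plates 2 and 3 and the jejunum plate. Tph1-high sums were 2.14, 0.411, 56.4 and 10.9 CPM in duodenum plates 1, 2 and 3 and the jejunum plate, and Chgb-low sums were 0.149, 0.754, 2.57 and 0.758 CPM. The peptide-high sums lay above all others, and the Tph1-high and Chgb-low sums overlapped. Only 11 of the 28 peptide-high cells reached 100 CPM, while 11 others had no count, and the median cell stood at 1.71 CPM. Few cells carried the counts, with 66.2%, 80.3% and 46.1% of the peptide-high counts in the top cell of duodenum plates 2 and 3 and the jejunum plate. Outside the class, 3 Tph1-high cells, 0 Chgb-low cells and 1 cell that met no rule reached 100 CPM. A gene model on the same strand, Gm37113, overlaps Rbp2 over 1157 bases and held 334 counts in all cells.

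Fabp2 (ENSMUSG00000023057, chromosome 3, 122895072 to 122899506, plus strand), encoding the intestinal fatty acid-binding protein, varied widely among peptide-high sums. It was lower in Tph1-high than in Chgb-low sums. Its peptide-high sums were 139, 0.269 and 140 CPM in duodenum plates 2 and 3 and the jejunum plate. Tph1-high sums were 0.134, 0.903, 9.80 and 10.2 CPM in duodenum plates 1, 2 and 3 and the jejunum plate, and Chgb-low sums were 28.4, 93.4, 16.1 and 41.9 CPM. The peptide-high sums overlapped those of both other classes, whereas every Tph1-high sum lay below every Chgb-low sum. The 7 peptide-high cells of duodenum plate 3 together held 1 count. At 100 CPM or more, Fabp2 was found in 9 of 28 peptide-high, 2 of 94 Tph1-high and 9 of 120 Chgb-low cells. Single wells weighed heavily, as 99.7% of the Chgb-low counts of the jejunum plate lay in 1 of its 13 cells. An antisense gene lies across Fabp2 in GENCODE M21 and is not analysed here.

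The lipoprotein coat genes were nearly silent. Apoa1 (ENSMUSG00000032083, chromosome 9, 46228580 to 46230466, plus strand) had 118 counts in the 3 classes, of which 117 lay in 1 Tph1-high cell of duodenum plate 2, at 165 CPM. It was at 0 in all 28 peptide-high and all 120 Chgb-low cells, where 3 counts would have been 0.177 and 0.0536 CPM. Apoa4 (ENSMUSG00000032080, chromosome 9, 46240696 to 46243459, plus strand), which encodes a chylomicron apolipoprotein, had 27 counts in all cells. They lay in 3 cells of duodenum plate 2, with 5 counts in 1 peptide-high cell, 7 in 1 Tph1-high cell and 15 in 1 Chgb-low cell. Neither gene passed the filter on low counts in the comparison of classes.

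**Figure D1:**
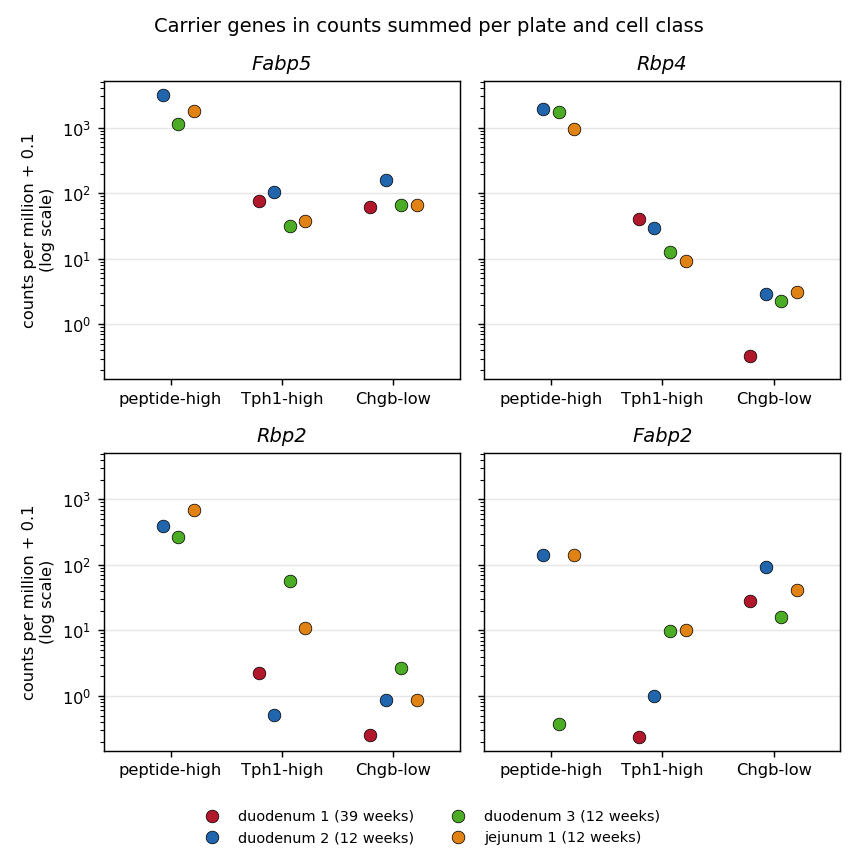
Summed counts per plate and cell class for Fabp5, Rbp4, Rbp2 and Fabp2, as CPM plus 0.1 on a log axis, with 1 point per plate. Fabp5, Rbp4 and Rbp2 lie higher in every peptide-high sum than in any sum of the other classes, while Fabp2 overlaps; duodenum plate 1 has no peptide-high point.

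**Figure D2:**
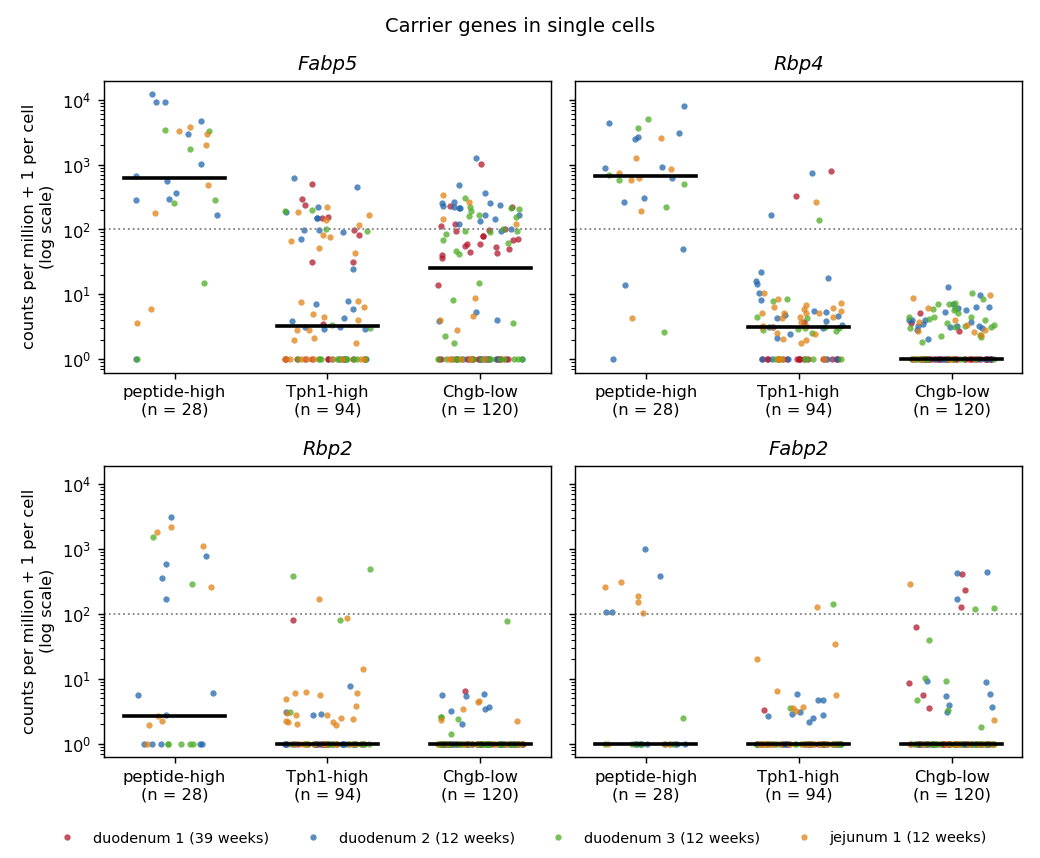
The same 4 genes in single cells, as CPM plus 1 on a log axis, with 1 point per cell, the class median as a black bar and 100 CPM as a dotted line. Rbp4 is above the line in 23 of 28 peptide-high cells and in 0 of 120 Chgb-low cells.

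Peptide-high cells were compared with Chgb-low cells to ask which carriers go with hormone production. Rbp4, Rbp2 and Fabp5 were higher in peptide-high cells, and Fabp2 showed no detectable difference. By edgeR's quasi-likelihood test with Benjamini-Hochberg adjustment over 13210 genes, the log2 fold change was 9.17 ± 0.99 (SE) for Rbp4, with adjusted p = 0.00258. It was 8.63 ± 1.32 for Rbp2, with adjusted p = 0.0126. It was 4.21 ± 0.33 for Fabp5, with adjusted p = 0.000914. For Fabp2 it was -0.09 ± 1.76, with adjusted p = 0.987, and its sign turned in 7 of 17 alternatives, which ran from -1.03 to 4.01. In plates, the Fabp2 log2 ratio of CPM + 1 was 0.57 and -3.75 in duodenum plates 2 and 3 and 1.72 in the jejunum plate. Thus 3 of the 4 carriers tested were called higher, beside 0.818% of all genes called higher in this comparison, 1.76% called lower and 2.57% called in all. Since the carriers were chosen with earlier results of these data known, this contrast is not an independent test. At an unadjusted p under 0.05 stood 16.9% of all genes, and DESeq2 called 16.5%. The median log2 fold change over all genes was -0.32. In each of the 3 plates with both classes, Rbp4, Rbp2 and Fabp5 were higher in the peptide-high sum.

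The Chgb-low class is not a class of enterocytes, and its makeup bears on this comparison. The sum of 15 goblet and Paneth cell genes ran from 26640 to 43370 CPM in its 4 plates, against 2342 to 4780 CPM in peptide-high and 768 to 1424 CPM in Tph1-high cells. Leaving out the 92 Chgb-low cells in which that sum reached 5000 CPM kept the directions for Rbp4, Rbp2 and Fabp5, at 10.14, 13.19 and 5.42, and ended the calls, with edgeR adjusted p = 0.134, 0.267 and 0.217. The part of goblet and Paneth cells in these differences was otherwise not tested. The Rbp4 call was also lost without duodenum plate 2 (log2 fold change 9.23, adjusted p = 0.0534) and the Rbp2 call without the jejunum plate (7.98, adjusted p = 0.161).

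Peptide-high cells were next compared with Tph1-high cells, since both make granules and differ in the hormone. Fabp5 was higher in peptide-high cells by 5.15 ± 0.36 (SE) on the log2 scale, with edgeR adjusted p = 0.000985. It was the 1 carrier of 4 called, beside 0.053% of all genes called higher, 0.0908% called lower and 0.144% called in all, or 19 of 13210. How the carriers were chosen limits this contrast in the same way. At an unadjusted p under 0.05 stood 9.36% of all genes. Rbp4 had a log2 fold change of 6.21 ± 1.02 and Rbp2 of 5.66 ± 1.28, with edgeR adjusted p = 0.106 and 0.241, so neither passed the threshold although the sums did not overlap. DESeq2, which called 901 genes (6.82%) here, gave adjusted p = 1.06e-16 for Rbp4 and 4.50e-08 for Rbp2. Rbp4 also passed in edgeR without the plate as a block (6.14, adjusted p = 0.00388) and without duodenum plate 1 (6.67, adjusted p = 0.00344). Fabp2 stood at 3.65 ± 2.14 with edgeR adjusted p = 0.679. The Fabp5 call was lost without duodenum plate 2 (5.28, adjusted p = 0.0620), without the jejunum plate (4.76, adjusted p = 0.0565) and when the secretory Chgb-low cells were left out of the joint fit (4.91, adjusted p = 0.330).

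For Tph1-high against Chgb-low cells, edgeR called none of the 4 carriers tested, beside 3.69% of all genes called, 1.45% higher and 2.25% lower. The log2 fold changes were 2.96 ± 0.82 (SE) for Rbp4, 2.97 ± 1.07 for Rbp2, -0.94 ± 0.29 for Fabp5 and -3.74 ± 1.87 for Fabp2, with edgeR adjusted p = 0.109, 0.205, 0.141 and 0.353. Their unadjusted p were 0.00653, 0.0239, 0.0108 and 0.0800, beside 17.4% of all genes under 0.05. DESeq2, which called 16.1% of genes, called all 4 carriers, with adjusted p = 5.42e-05, 0.0043, 0.0325 and 0.0165. Without the Chgb-low cells rich in goblet and Paneth genes, the sign turned for Fabp5, to 0.52, and for Fabp2, to 0.45. The Rbp4 call appeared when the plate was left out of the fit (adjusted p = 0.0287). All 3 comparisons use the same class sums, so they are not independent of each other.

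**Figure D3:**
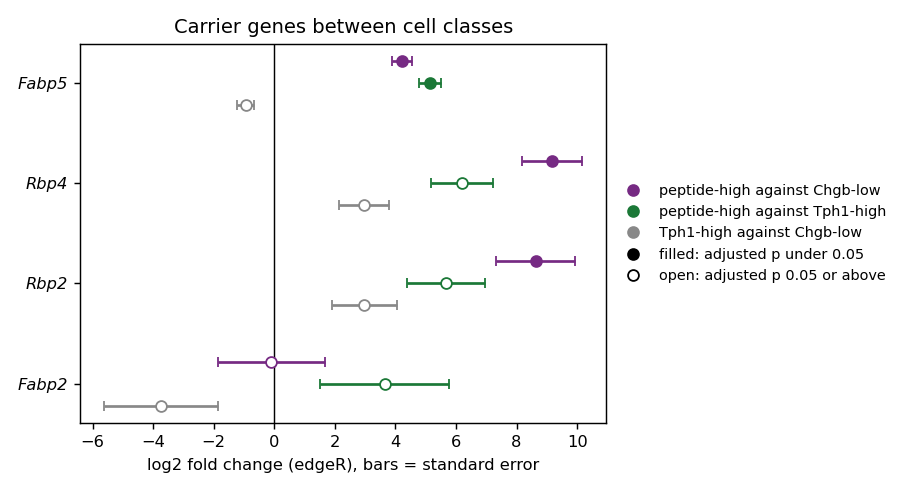
Log2 fold changes of the 4 tested carriers between classes, with standard errors as bars, from edgeR on 11 class sums. Filled points have an adjusted p under 0.05; Fabp5 is filled in both comparisons of peptide-high cells, and Rbp4 and Rbp2 against Chgb-low cells only.

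Within the peptide-high class, levels of the carriers varied with the hormone and with the plate. The values below describe cells and have no test, since cells of a plate share their source and the hormone chose the class. Gip reached 1000 CPM in 11 cells, and in these Fabp5 ran from 4.94 to 12089 CPM with a median of 3448 CPM. In the 17 cells with less Gip, Fabp5 ran from 0 to 3252 CPM with a median of 294 CPM. Rbp2 had a median of 771 CPM in the 11 Gip cells, 8 of which reached 100 CPM, and of 0 CPM in the other 17, of which 3 did. The highest Rbp2 value, 3153 CPM, was in a duodenum plate 2 cell with 74596 CPM of Gip. These medians pool plates with different mixes of hormones, since the 11 Gip cells were 6, 1 and 4 and the 17 others 7, 6 and 4 of duodenum plates 2 and 3 and the jejunum plate. By the hormone highest in the cell, the gap was largest in duodenum plate 2, where the Fabp5 median was 6876 CPM in 6 cells led by Gip and 365 CPM in 7 led by Cck. In the jejunum plate it was 1474 CPM in 2 cells led by Gip, at 2942 and 4.94 CPM, 999 CPM in 2 led by Cck and 1893 CPM in 4 led by Gcg. The Rbp2 medians there were 550, 130 and 914 CPM, so cells led by Gcg had the highest medians of both genes in the jejunum plate. All 11 cells with Rbp2 at 100 CPM or more also had Fabp5 and Rbp4 at 100 CPM or more. Of the 17 peptide-high cells with less Rbp2, 12 reached that level of Fabp5 and 12 that level of Rbp4.

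Rbp4 did not follow Gip. Its median was 744 CPM in the 11 cells with Gip and 630 CPM in the 17 without. The 10 cells with Gcg at 1000 CPM or more all reached 100 CPM of Rbp4, from 194 to 8011 CPM. The highest Rbp4 value was in a duodenum plate 2 cell with 112797 CPM of Cck and 21357 CPM of Gcg. Of the 4 cells with Ghrl, 3 reached 100 CPM of Rbp4, with a highest value of 5048 CPM. Fabp2 reached 100 CPM in 2 of the 11 Gip cells and in 6 of the 10 Gcg cells, with a highest value of 989 CPM. Of the Gcg cells 6 were from the jejunum plate, against 4 of the Gip cells, and Fabp2 itself reached 100 CPM in 5 of 8 jejunum, 4 of 13 duodenum plate 2 and 0 of 7 duodenum plate 3 peptide-high cells. Hormone and plate are therefore mixed in this count. Gip and Gcg cells overlap in these counts, because a cell could pass the limit for several hormones. The deepest peptide-high cell, of the jejunum plate, had 1660294 counts, 643177 of them Gip, and held 2942 CPM of Fabp5 and 1099 CPM of Rbp2.

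**Figure D4:**
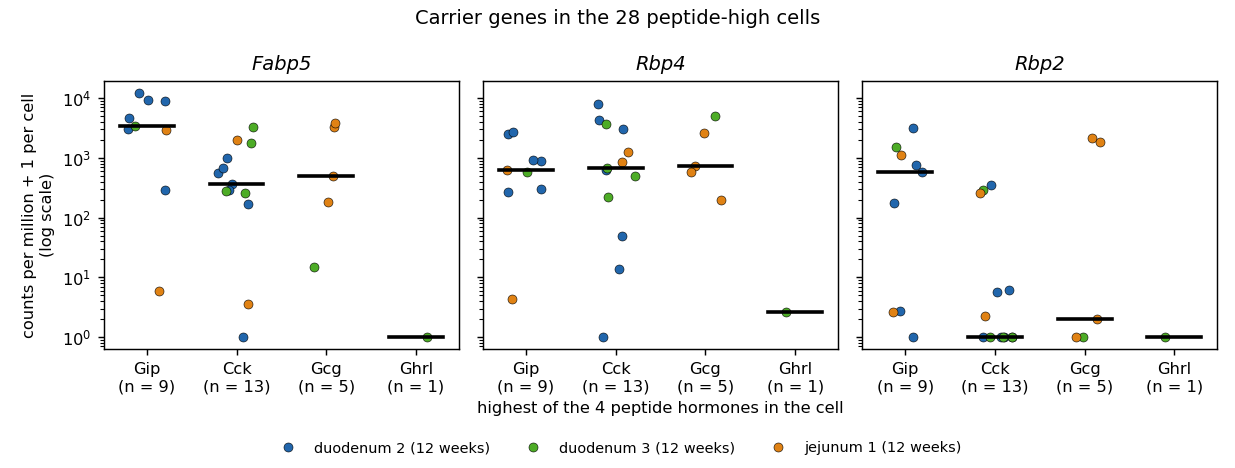
Fabp5, Rbp4 and Rbp2 in the 28 peptide-high cells, grouped by the hormone highest in the cell, as CPM plus 1 on a log axis, with medians as black bars. Cells led by Gip have median values of 3448 CPM for Fabp5 and 586 CPM for Rbp2, against 365 and 0 CPM in cells led by Cck, with plates pooled; 6 of the 9 and 7 of the 13 are from duodenum plate 2, and in the jejunum plate cells led by Gcg have the highest medians of both genes.

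Cells that were both peptide-high and Chgb-low, 19 in all, were kept out of the 3 classes. They were led by Ghrl and Cck and included 0 cells with Gip at 1000 CPM. Rbp2 did not exceed 3.24 CPM in any of them and Fabp2 was at 0 in all. Rbp4 reached 100 CPM in 6 of the 12 with Ghrl and in 1 of the 9 with Cck. Fabp5 had a median of 224 CPM in the 9 Cck cells, of which 8 reached 100 CPM. When hormone rules took precedence, so that these cells joined the peptide-high class, none of the calls for the carriers against Chgb-low cells was lost.

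Values near the class limits were mixed. The highest cell under the peptide limit, at 907 CPM of Gip in duodenum plate 2, held 779 CPM of Fabp5, 605 CPM of Rbp2 and 3342 CPM of Rbp4. The next below, at 879 CPM, had 0 of these genes. The lowest cell inside the limit, at 1072 CPM, had 205 CPM of Fabp5, 0 of Rbp2 and 6.83 CPM of Rbp4. In all, 8 cells lay within 2-fold above the peptide limit and 14 within 2-fold below it. For Tph1 there were 4 cells above and 2 below, and for Chgb 8 above and 12 below, within the same range.

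Enterocyte genes were then read in the same classes, because the carriers are best known from enterocytes. The definers Alpi (the brush border alkaline phosphatase), Lct (lactase) and Slc2a2 (a basolateral glucose transporter) were at or near 0 in every class. Peptide-high cells had 0 counts of Alpi, 0 of Slc2a2 and 1 of Lct among 16931492, where 3 counts would be 0.177 CPM. Tph1-high cells had 0, 0 and 4 counts, and Chgb-low cells 83, 1 and 0. No plate exceeded 3.17 CPM for any of the 3 genes in any class. A class with clear enterocyte definers was therefore not present for comparison.

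Other enterocyte genes were measured in all classes and were in part higher in peptide-high cells. Sis (sucrase-isomaltase) stood at 143, 490 and 400 CPM in the peptide-high sums of duodenum plates 2 and 3 and the jejunum plate. It stood at 65.5 to 222 CPM in Tph1-high and 48.4 to 361 CPM in Chgb-low sums. Slc5a1, the sodium-glucose cotransporter, stood at 59.4, 198 and 281 CPM in peptide-high sums, at most 32.4 CPM in Tph1-high and at most 33.1 CPM in Chgb-low sums. Its log2 fold change was 2.16 ± 0.76 (SE) against Chgb-low and 3.24 ± 0.71 against Tph1-high cells, with edgeR adjusted p = 0.212 and 0.227, which did not pass. Slc5a1 is also known from enteroendocrine cells, where it takes part in glucose sensing.

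Of 26 listed enterocyte genes, 24 had a row and 13 passed the filter. Against Chgb-low cells, 1 of these 13 was higher in peptide-high cells, 0 were lower and 12 did not pass. Over all genes, 0.818% were called higher and 1.76% lower. The 1 was Slc6a19, an amino acid transporter named here after its values were seen, at 423, 217 and 487 CPM in the 3 peptide-high sums and at most 4.37 CPM in Chgb-low sums (log2 fold change 7.36 ± 1.096 (SE), edgeR adjusted p = 0.0111). The list's median log2 fold change was 1.16, beside -0.32 over all genes. Of the 13, 10 had a log2 fold change above 0. An unadjusted edgeR p under 0.05 was found for 6 of the 13, beside 16.9% of all genes. DESeq2 called 5 of the 13, beside 16.5% of all genes. The summed enterocyte list ran from 2252 to 7676 CPM in peptide-high, from 657 to 1385 CPM in Tph1-high and from 1203 to 2019 CPM in Chgb-low sums. With the highest gene of each sum left out, it ran from 1448 to 2584 CPM in peptide-high, from 336 to 804 CPM in Tph1-high and from 398 to 818 CPM in Chgb-low sums. The sum was thus higher in peptide-high cells along with Rbp4, Rbp2 and Fabp5. Of its 24 genes, 6 had 0 counts in peptide-high cells, Alpi and Slc2a2 among them. In Tph1-high cells 6 and in Chgb-low cells 2 had 0 counts. Under 1 CPM stood 10 genes in peptide-high, 9 in Tph1-high and 12 in Chgb-low cells, and total counts differed between the classes. The part of these enterocyte genes in the carrier results was not tested.

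For Tph1-high against Chgb-low cells, 1 enterocyte gene of 13 was called higher and 2 lower by edgeR, beside 1.45% and 2.25% of all genes. Slc6a19 was higher (4.57 ± 0.93 SE, adjusted p = 0.0372), and Slc2a5, the fructose transporter, was among the lower (-2.77 ± 0.49, adjusted p = 0.0206). Both are named here after their values were seen. Against Tph1-high cells, 0 of the 13 passed in peptide-high cells, with 7 at an unadjusted p under 0.05 and 7 by DESeq2. Over all genes, edgeR called 0.144%, 9.36% stood under that unadjusted p and DESeq2 called 6.82%.

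Fabp2 and the enterocyte genes could also be set side by side within cells. Of the 9 peptide-high cells with Fabp2 at 100 CPM or more, 7 had Sis and 6 had Slc5a1 at 100 CPM or more, and 0 had Alpi, Lct or Slc2a2. Of the 19 others, 12 had Sis and 7 had Slc5a1 at that level. Of the 11 cells with Rbp2 at 100 CPM or more, 6 had Sis and 6 Slc5a1, against 13 and 7 of the 17 others. The median of Slc5a1 was 148 CPM in the Fabp2 cells and 4.09 CPM in their 19 others, and 192 CPM in the Rbp2 cells and 4.94 CPM in their 17 others. Of the 23 cells with Rbp4 at 100 CPM or more, 13 had Slc5a1 at that level, against 0 of the 5 others. Slc5a1 was thus higher by median in cells with Fabp2 or Rbp2, while some cells without them also reached 100 CPM. The Fabp2 cells were 4, 0 and 5 and the Rbp2 cells 5, 2 and 4 of duodenum plates 2 and 3 and the jejunum plate. Slc5a1 also differed between the peptide-high sums of these plates, so gene and plate are mixed in these counts.

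**Figure D5:**
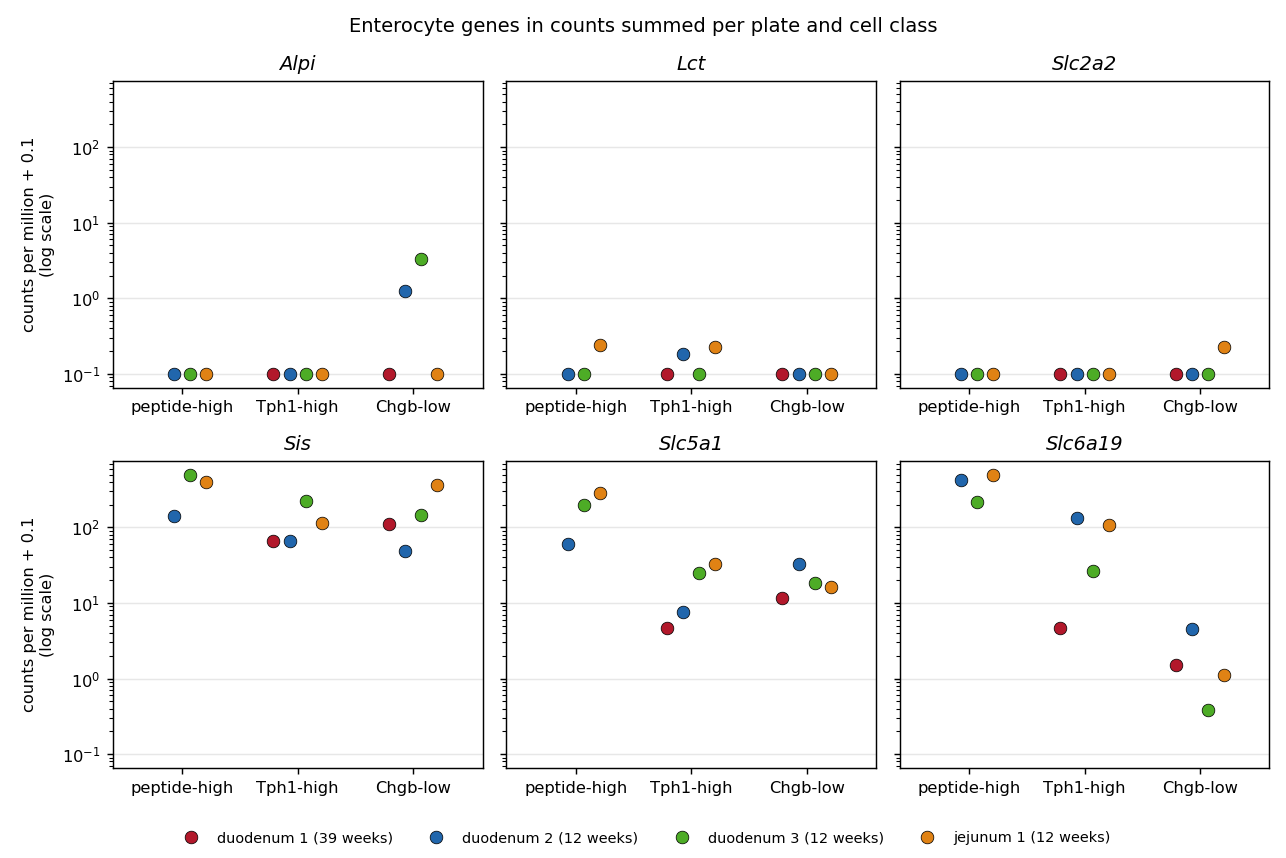
Summed counts per plate and class for 6 enterocyte genes, as CPM plus 0.1 on a log axis, with 1 point per plate. Alpi, Lct and Slc2a2 lie at or near the floor in all classes, with at most 3.17 CPM, while Sis, Slc5a1 and Slc6a19 are measured in every class.

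The wider pathway of lipid and retinol handling was read from 59 listed genes, of which 52 had a row and 36 passed the filter. In peptide-high against Chgb-low cells, edgeR called 0 of 36, with 11 at an unadjusted p under 0.05 and 9 by DESeq2. The list's median log2 fold change was 1.137, beside -0.32 over all genes. In peptide-high against Tph1-high cells it called 0 of 36, with 2 at an unadjusted p under 0.05 and 1 by DESeq2, and the median was -0.01 beside -0.21 over all genes. In Tph1-high against Chgb-low cells, 1 of 36 was higher and 0 lower, and the median was 0.49 beside 0.07. There, 11 of 36 stood at an unadjusted p under 0.05 and 7 were called by DESeq2. Over all genes, edgeR called 2.57%, 0.144% and 3.69% in these comparisons, in the order given. In the same order, 16.9%, 9.36% and 17.4% of all genes stood at an unadjusted p under 0.05, and DESeq2 called 16.5%, 6.82% and 16.1%. The 1 edgeR call describes that gene. Whether the list as a whole differed between classes was not tested.

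The 1 called gene was Npc1l1, which encodes the cholesterol uptake transporter of the intestine. It stood at 151, 98.1, 38.6 and 196 CPM in the Tph1-high sums of duodenum plates 1, 2 and 3 and the jejunum plate, and at 2.62, 11.8, 5.84 and 5.81 CPM in the Chgb-low sums. The log2 fold change was 3.67 ± 0.79 (SE), with edgeR adjusted p = 0.0454. Peptide-high sums were 32.5, 61.4 and 140 CPM. The sums of both hormone classes lay above those of the Chgb-low class.

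The partners of lipoprotein export reached at most 119 CPM in the sums of any class. Apob, the structural protein of chylomicrons, ranged from 0.269 to 46.3 CPM in peptide-high, from 6.38 to 119 CPM in Tph1-high and from 0.379 to 13.4 CPM in Chgb-low sums. Mttp, which loads lipid onto Apob, had 50.6, 58.4 and 66.0 CPM in the peptide-high sums, 0.134 to 37.2 CPM in Tph1-high and 0.505 to 17.8 CPM in Chgb-low sums. Apoc3, a further chylomicron apolipoprotein, had 1.33, 55.2 and 86.3 CPM in the peptide-high sums, at most 44.3 CPM in Tph1-high and at most 13.5 CPM in Chgb-low sums. None of these genes passed in any of the 3 comparisons, with edgeR adjusted p from 0.392 to 0.995.

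The blood partner of Rbp4 did not follow its order of classes. Ttr, encoding transthyretin, was found in every class, at 326, 184 and 44.0 CPM in the peptide-high sums, 72.6 to 508 CPM in Tph1-high and 105 to 207 CPM in Chgb-low sums, which overlapped. Hnf4a, the nuclear receptor that drives many enterocyte genes, stood at 200, 404 and 268 CPM in the peptide-high sums, 119 to 261 CPM in Tph1-high and 31.2 to 140 CPM in Chgb-low sums. Its log2 fold change in peptide-high against Chgb-low cells was 1.65 ± 0.54 (SE), with edgeR adjusted p = 0.182.

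Across the plates, carriers were also summed over all cells. Fabp5 was at 63.3, 644, 159 and 321 CPM in duodenum plates 1, 2 and 3 and the jejunum plate. Rbp4 was at 12.9, 361, 179 and 193 CPM, and Rbp2 at 0.837, 68.2, 40.6 and 111 CPM. Fabp2 was at 16.0, 54.6, 11.4 and 34.2 CPM. Duodenum plate 1 was the lowest for Fabp5, Rbp4 and Rbp2, and is the plate with 0 peptide-high cells. For 39 against 12 weeks, edgeR called 0 of 18480 genes (0.0%), with 1412 (7.64%) at an unadjusted p under 0.05 and 920 (6.49%) called by DESeq2. The log2 fold changes were -6.15 ± 0.84 (SE) for Rbp2, -4.51 ± 0.68 for Rbp4 and -2.78 ± 0.92 for Fabp5, with edgeR adjusted p = 0.375, 0.397 and 0.639. DESeq2 gave adjusted p = 5.55e-11, 1.36e-12 and 0.00198. Age is carried by 1 plate, so age and plate cannot be told apart, and a smaller number of hormone cells and less RNA per cell cannot be told apart in such sums. In the sums of Tph1-high cells alone, Rbp4 was 40.8 CPM in this plate, above the 9.04 to 29.1 CPM of the other 3. That sum rests on few wells, since 3 of its 20 cells had any Rbp4 count and 1 cell held 53.8% of the counts. By median cell the order was reversed, at 0 CPM in this plate. The medians were 3.27 and 1.86 CPM in duodenum plates 2 and 3 and 3.39 CPM in the jejunum plate.

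Jejunum and duodenum were not distinguishable for the carriers. Between the jejunum plate and the 3 duodenum plates, edgeR called 0 of 19329 genes (0.0%), with 819 (4.24%) at an unadjusted p under 0.05 and 731 (4.28%) by DESeq2. The log2 fold changes were 0.16 ± 1.08 (SE) for Fabp5, 0.04 ± 1.32 for Rbp4, 1.57 ± 1.48 for Rbp2 and 0.34 ± 0.92 for Fabp2, with edgeR adjusted p from 0.980 to 1.000. Leaving out 1 duodenum plate turned 3 of these: Fabp5 became -0.33 and Rbp4 -0.51 without plate 1, and Fabp5 -0.11 and Fabp2 -0.013 without plate 3. Without plate 2 they were 1.48 for Fabp5, 0.92 for Rbp4, 2.32 for Rbp2 and 1.32 for Fabp2. A test of whether a class difference itself differed between tissues also called 0 genes (0.0%) in each comparison. At an unadjusted p under 0.05 stood 8.59% of 13210 genes for peptide-high against Chgb-low, 5.47% for Tph1-high against Chgb-low and 5.41% for peptide-high against Tph1-high cells. For peptide-high against Chgb-low cells, the difference between tissues was 0.63 ± 0.66 for Fabp5, -1.46 ± 1.67 for Rbp4 and 1.59 ± 2.71 for Rbp2, with edgeR adjusted p = 0.883, 0.904 and 0.982. Tissue is likewise carried by 1 plate on 1 side.

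Genes most like each carrier were taken by the mean over 4 plates of Spearman's rank correlation across cells, on log2(CPM + 10). Cells of a plate share their library and depth, and the values are descriptions. For Fabp5 the nearest was Gm6166 at 0.79, a processed pseudogene copy of Fabp5, followed by Sphkap at 0.28 and BC004004 at 0.27. The 5 copies of Fabp5 in the table match it at 93.6% to 98.3% over 336 to 409 bases, and Gm6166 held 6.77% as many counts as Fabp5, so reads of Fabp5 and its copies may be split between rows. For Rbp4 the nearest was the hormone gene Cck at 0.32, then Pdx1, a transcription factor of the duodenum and pancreas, and Pop5, both at 0.30. For Rbp2 they were Mrpl4 at 0.30, Lman1 at 0.26 and Ttpal at 0.24. For Fabp2 they were Agr2 at 0.33, Rab17 at 0.32 and Kcnk1 at 0.30. Apart from the copy, these values are low. Among the carriers, the correlation of Fabp5 with Rbp4 was 0.02, 0.27, 0.25 and 0.31 in duodenum plates 1, 2 and 3 and the jejunum plate.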

How the data were processed

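Single eYFP-positive enteroid cells were sequenced with the BD Precise WTA plate kit, per the labels' protocols. The authors deposited whole-number counts per gene and well, and these counts were used as deposited. The submitters' processing notes name bcl2fastq 2.17.1.14, cutadapt 1.10, Bowtie2 2.2.8, STAR 2.5.3a, UMI-tools 0.4.4, HTSeq 0.6.1 and build mm10, with no role or order. No source used here gives the filter on cells or says whether copies were collapsed. With a largest value of 643177, the counts may include PCR copies, and limits for a count of 0 (3 counts) cover counting error only. Cells held 202711 to 2312044 counts. No cell was removed and no doublet caller was run, since wells received 1 cell each. Wells are named by their place on the plate: of 92 well names, 41 occur in all 4 plates and 88 in more than 1.

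Columns were matched to plates by the number in their name. Counts were summed per plate and class (at least 5 cells) and tested in 1 fit of 11 sums with edgeR 4.0.16 (R 4.3.3, limma 3.58.1) using TMM, filterByExpr, the plate as a block and a threshold of 0.05 on Benjamini-Hochberg adjusted p. Plate sums were tested the same way without a block. DESeq2 1.42.0 and the other alternatives are in the closing section. The classes of a plate come from the same sort and library, so the plate pairs them. Copies of the carriers were found by aligning transcripts of GENCODE M21. Promoter windows are RefSeq's, and Fabp5 had no entry.

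The members and lists were chosen with earlier results of these data known. Named genes were the carriers, Apob, Mttp, Apoc3, Ttr and Hnf4a, up to 5 pathway genes per direction past the threshold, Alpi, Sis, Lct, Slc5a1 and Slc2a2, and the 3 genes most like each carrier with a mean of at least 20 CPM. Some listed genes are not reported here. A comparison of Ghrl cells with other peptide-high cells could not be run, because 0 cells had Ghrl alone.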

Additional observations from a re-analysis of the deposited data

Results flagged for a closer look

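Fabp5 in Tph1-high against Chgb-low cells went in opposite directions in the duodenum plates by age. In the 39-week plate it was 75.4 against 61.6 CPM, and in both 12-week plates it was lower in Tph1-high cells, at 104 against 158 CPM and 31.9 against 65.2 CPM. The 39-week plate differed from the mean of the 12-week plates by 1.09 on the scale of log2(CPM + 1) ratios. The difference was not tested, and each side of the age contrast rests on 1 or 2 plates.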

How the results depend on the processing

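Rbp4, Rbp2 and Fabp5 were higher in peptide-high cells in both comparisons under all 17 alternatives, but the number of genes called by edgeR moved widely. For peptide-high against Chgb-low cells, 340 genes became 2179 with DESeq2, 1058 with limma on mean log2 values, 139 with only the 2 compared classes, 5 with sums of at least 10 cells and 4 without goblet and Paneth cells. For Tph1-high against Chgb-low cells, 488 became 2080, 1054, 301 with stricter class limits and 7 without goblet and Paneth cells. For peptide-high against Tph1-high cells, 19 became 901 with DESeq2, 138 with limma, 30 with no filter, 11 without the hormone genes, 9 with hormone rules first, 9 without goblet and Paneth cells and 3 with at least 10 cells. For jejunum against duodenum, 0 became 731 with DESeq2 and 9 with no filter, and for age 920 and 226. Leaving out a plate gave 93 to 263, 186 to 271, 5 to 19, 0 to 10 and 0 genes in the 5 comparisons. Without the replicate block of plates the class comparisons called 256, 348 and 21 genes, and Rbp4 passed in both comparisons with Tph1-high cells. With at least 10 cells, 1 peptide-high sum was left, assumed to vary like the other sums, and Fabp5, Rbp2 and Rbp4 against Chgb-low cells had edgeR adjusted p = 0.135, 0.217 and 0.217, and Fabp5 against Tph1-high cells 0.145.

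Fabp2 in peptide-high against Chgb-low cells changed sign, from -0.09 to 0.89 (at least 10 cells), 0.10 (stricter limits), 0.80 (no replicate block), 0.91 (limma) and 4.01 (without goblet and Paneth cells), and from -1.03 to 0.29 when a plate was left out. In Tph1-high against Chgb-low cells without goblet and Paneth cells, Fabp2 became 0.45 and Fabp5 0.52. For jejunum against duodenum without 1 plate, Fabp5 ran from -0.33 to 1.48, Rbp4 from -0.51 to 0.92 and Fabp2 from -0.013 to 1.32. The cause of these changes was not tested. Leaving out the deepest peptide-high cell or adding the Fabp5 copies, both chosen after seeing the data, changed no call for a carrier. Few peptide-high cells per plate limit the precision.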
